A study of Mus musculus with 10 samples.

Results

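Small heat shock proteins and the cytosolic chaperones that act with Hsp70 were followed in the left ventricle of mouse hearts after transverse aortic banding (TAB), an operation that narrows the aorta and loads the ventricle with pressure. The members are 10 genes, Hspb1, Hspb2, Hspb3, Hspb6, Hspb7, Hspb8, Hspa1a, Hspa1b, Hsph1 and Dnajb1, of 20214 genes named in the array table, and were found by their gene symbol alone. They have 11 probes in the table, of which 10 passed the filter on low intensity, 1 for each member. The second probe of Hspb2 was removed, with a raw intensity of −2 to 5 and its spot not found on any of the 10 arrays. The Hspb7 transcript rose in TAB hearts on average over the 5 days, by 1.76-fold, and was higher than in sham on each day. Hspb6 lay above sham on each day as well, with a mean difference that did not pass the test. Hspa1b and Dnajb1 were above sham on the first 4 days and below it on day 28, when the sham sample itself held the highest sham level of both, and their mean differences over the 5 days did not pass the test. The other members, Hspb1, Hspb2, Hspb3, Hspb8, Hspa1a and Hsph1, had overlapping groups and did not pass the test.

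Small heat shock proteins bind unfolding proteins without using ATP and keep them from aggregating until Hsp70 chaperones can refold or pass them on for degradation. In heart muscle several of them sit at the sarcomere and its Z-disc, where mechanical load strains proteins. Hspa1a and Hspa1b encode the inducible Hsp70, Dnajb1 is a J-domain cochaperone that delivers substrates and stimulates its ATPase, and Hsph1 is a nucleotide exchange factor that lets it release them. The genes of this inducible set are classic targets of heat shock factor Hsf1 under protein stress.

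All samples were left ventricles of C57BL/6J male mice, operated at the age of 8 weeks, and the animals carried no transgene or deletion that the labels name. The TAB group held 1 sample from each of 5 days after banding (day 3, 5, 7, 14 or 28), and the sham group 1 sample from each of those days after an operation without banding. How many mice a sample held is not stated, so a difference on a single day has no replicate check. In fits that pair TAB and sham by day (the day as a block), the p-values below measure the spread of the differences over the days. In fits without the block they measure the spread of levels within TAB and within sham. Those for late against early days measure the spread of the differences within days 3 to 7 and within days 14 and 28. For TAB on day 14, the condition label reads 1 day more than the title, which was followed. RNA was hybridized in 1 colour to a Mouse Whole Genome OneArray, and values are normalized intensities of a probe, which can be compared between samples and not between probes. The raw array medians ran from 34 to 57, between 40.2% and 47.3% of spots were not found on an array. Each sample has 1 column of values, called its array here. The study's methods average repeated data of a sample, and how many repeats stand behind a column is not stated. Nothing in the sources used here says whether the probes of Hspa1a and Hspa1b, which encode nearly the same protein, tell the transcripts apart.

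The libraries carried the markers of heart muscle and of banding, with 2 sham samples standing apart for some genes. All 7 cardiomyocyte markers were measured, none passed the test, and their summed normalized intensity was 172916 to 184135 in TAB and 185042 to 217360 in sham. In bulk tissue, fewer cells of a type and less RNA per cell cannot be told apart. Of the 5 leukocyte markers, 4 were higher in TAB and Cd3e was lower, and their sum was 3674, 4228 and 4110 on days 3, 5 and 7 and 2088 and 1847 on days 14 and 28, against 1300 to 1559 in sham. All 4 hypertrophy markers (Nppa, Nppb, Myh7 and Acta1) were higher in TAB, with a sum of 68553 to 79949 in TAB, 17254 to 18730 in the other 4 sham samples and 41314 in the sham sample of day 14. The sham sample of day 28 stood apart for Hspa1b and was the highest sham sample of Dnajb1 and Hspa1a, as given with those genes. Of the other marker lists, 3 of 5 fibroblast, 4 of 4 endothelial, 2 of 3 smooth muscle, 2 of 3 skeletal muscle and 1 of 2 red blood cell markers were measured, and of these Col3a1 alone passed the test, higher in TAB.

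**Figure D1:**
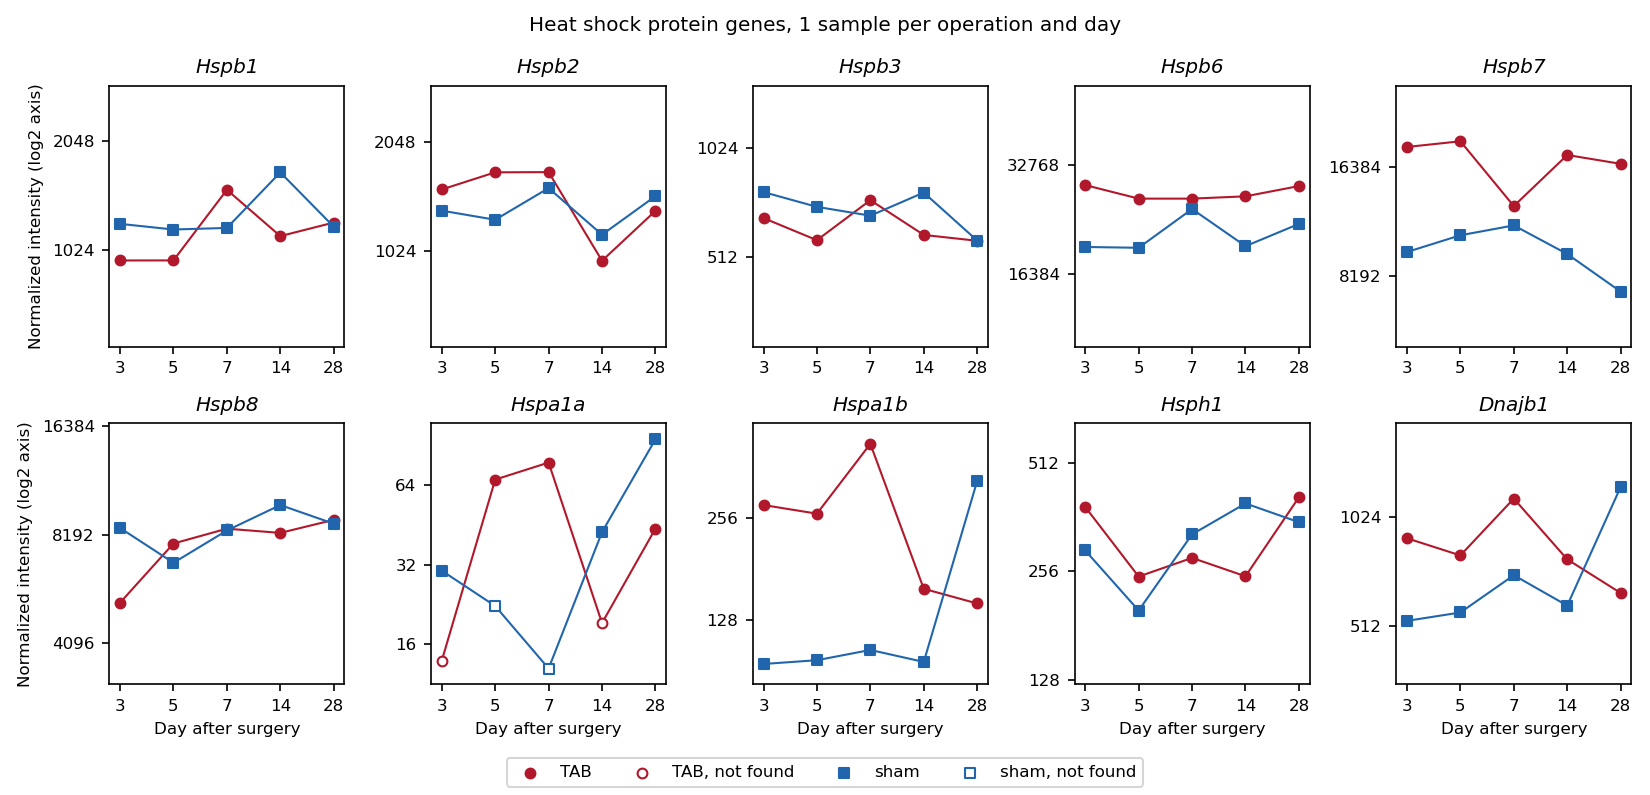
Normalized intensity (log2 axis) of the 10 heat shock genes against the day after surgery, with 1 TAB sample (circles) and 1 sham sample (squares) per day and open symbols where the spot was not found on the array. All TAB values of Hspb6 and Hspb7 lie above all sham values, and the sham sample of day 28 is the highest sham value of Hspa1a, Hspa1b and Dnajb1.

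The small heat shock protein Hspb7, which is expressed in heart and binds filamin C, was the member called DE over the days. Its normalized intensity in TAB was 18626, 19315, 12776, 17695 and 16728 in the order of the days. In sham it was 9534, 10607, 11295, 9412 and 7406. The lowest TAB value, on day 7, was above the highest sham value, which was also on day 7, so that the groups did not overlap and came closest on that day. The means were 17028 ± 2569 in TAB and 9651 ± 1477 in sham (SD, n = 5 each). The mean log2 difference was 0.82 (SE 0.16, 95% interval 0.42 to 1.22; limma, adjusted p = 0.0322), higher in TAB on 5 of 5 days. The log2 ratios by day were 0.97, 0.86, 0.18, 0.91 and 1.18, none of them beyond the 2 SD of its day. The difference between days 14 and 28 and days 3 to 7 was 0.37 (log2), or 0.13 to 0.52 with each day left out, and did not pass the test (limma, adjusted p = 0.673). The call was lost when any of the days was left out, with a log2 difference of 0.73 to 0.98 and an adjusted p by limma of 0.0546 to 0.101, and when probes of low intensity were kept (adjusted p = 0.0701). With a day left out, the probes called over the whole array fell from 2836 to 13, 35, 23 and 184 without days 3, 5, 7 and 14, and to 2773 without day 28. The gene lies at chr4:141420779-141425310 (GRCm38.p6).

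Hspb6, the small heat shock protein of muscle that cyclic AMP-dependent kinase phosphorylates, had the same order of groups with a smaller difference. Its TAB values were 28808, 26426, 26426, 26816 and 28630 in the order of the days. Its sham values were 19415, 19315, 24731, 19518 and 22490. All 5 TAB samples were above all 5 sham samples, and the sham sample of day 7 came closest. The means were 27421 ± 1197 and 21094 ± 2431 (SD, n = 5 each), 1.31-fold apart. The mean log2 difference of 0.38 (SE 0.11, 95% interval 0.11 to 0.66) missed the threshold with the day as a block (limma, adjusted p = 0.0695). Without the block it passed (limma, adjusted p = 0.0278), in a fit that called 19.4% of all probes, as it did with 50 added to the intensities, with only probes found on all 10 arrays, and with a trended and robust fit. Its log2 ratios were 0.57, 0.45, 0.10, 0.46 and 0.35 over the days, and late and early days differed by 0.031 (adjusted p = 0.971). Hspb6 lies at chr7:30552535-30555443.

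Of the 10 members, 1 was called higher and 0 lower by limma, against 7.47% and 6.73% of the 19976 probes tested. At an unadjusted p under 0.05 the members were 2 of 10, Hspb7 and Hspb6, against 33.8% of all probes. With the sham sample of day 14 left out, in a fit without the block, Hspb7 was again the member called, at 0.81 (log2; adjusted p = 0.0168). Hspb7 and Hspb6 were also the 2 members with all TAB samples above all sham samples, an order that 8.78% of probes had, and no member had the reverse order, which 7.59% of probes had. The mean difference was positive in 7 of the 10 members, with a median of 0.12 (log2), while 45.5% of all probes were positive with a median of −0.047. The median of the members lies between Hspb2 (0.081) and Hspa1a (0.16), whose value rests on spots not found. Hspa1a, Hspb2 and Hsph1, counted as positive, each turned negative when some single days were left out. Under median scaling alone the medians were 0.19 for the members and 0.0046 for all probes, and with ranks taken within each operation they were 0.18 and 0.0015.

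The other small heat shock proteins had TAB and sham values that overlapped. Hspb1, which binds actin and is phosphorylated downstream of p38, was 956 to 1501 in TAB and 1165 to 1677 in sham, with a mean log2 difference of −0.16 (95% interval −0.55 to 0.23; limma, adjusted p = 0.518). Its highest sham value was that of day 14, the other 4 sham samples lying between 1165 and 1208. Without that sample the difference was −0.063 in a fit without the block (limma, adjusted p = 0.810). With each day left out, in the fit with the block, the difference ran from −0.29 without day 7 to −0.058 without day 14. Hspb8, the partner of the cochaperone Bag3, was 5309 to 9006 in TAB and 6850 to 9897 in sham, with a difference of −0.14 (95% interval −0.52 to 0.23; limma, adjusted p = 0.560). Its TAB value was 5309 on day 3 and 7744 or more on the later days. The log2 ratio of day 3 was −0.69 against −0.26 to 0.18 on the others. Without day 3 the mean difference was −0.0068, and without day 5 it was −0.22. Hspb2, which binds the myotonic dystrophy kinase, was 963 to 1695 in TAB and 1137 to 1531 in sham, a difference of 0.081 (95% interval −0.25 to 0.41; limma, adjusted p = 0.717). Its partner Hspb3 was 568 to 736 in TAB and 569 to 775 in sham, a difference of −0.16 (95% interval −0.46 to 0.14; limma, adjusted p = 0.410), below sham on 4 of 5 days. Together the intervals of these 4 genes run from −0.55 to 0.41 on the log2 scale. These small differences moved with the scaling, and under median scaling alone that of Hspb1 was −0.052, of Hspb2 0.21, of Hspb3 −0.064 and of Hspb8 −0.098, none of them past the test.

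**Figure D2:**
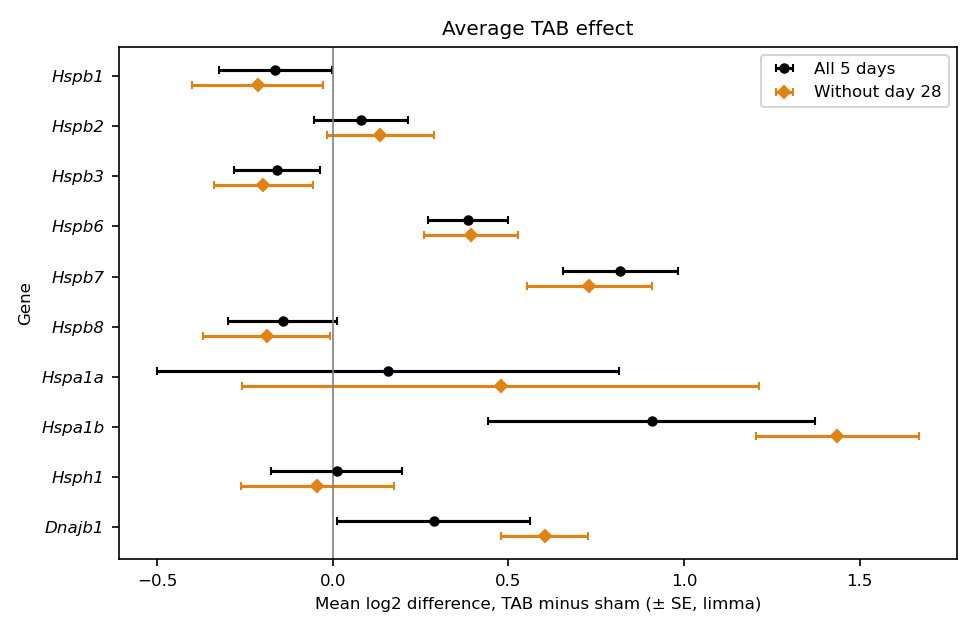
Mean log2 difference of TAB minus sham for each member, with bars of ± 1 SE from limma, over all 5 days (circles) and over the 4 days without day 28 (diamonds). The difference of Hspb7 goes from 0.82 to 0.73 and that of Hspb6 from 0.38 to 0.39, while that of Hspa1b goes from 0.91 to 1.44 and that of Dnajb1 from 0.29 to 0.60.

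Hspa1b, an inducible Hsp70 gene at chr17:34956429-34959238, had a pattern that turned on the last day. Its TAB values were 280, 264, 425, 159 and 143 in the order of the days. Its sham values were 95.0, 97.5, 105, 96.4 and 330. The first 4 sham samples had a mean of 98.4 ± 4.25 (SD, n = 4), and all 5 TAB samples were above them. The sham sample of day 28 was 3.36-fold above the mean of those 4, taken on the log2 scale. The log2 ratio of TAB over sham was 1.56, 1.44, 2.02, 0.72 and −1.20 over the days. The mean over all days was 0.91 (SE 0.47, 95% interval −0.22 to 2.04) and did not pass the test (limma, adjusted p = 0.228). With day 3, 5, 7 or 14 left out it was 0.63 to 0.96. Without day 28 the mean was 1.44 (SE 0.23) and passed (limma, adjusted p = 0.0280), and with the sham sample of day 28 alone left out, in a fit without the block, it was 1.26 (SE 0.30; limma, adjusted p = 0.0247). On day 28 the TAB sample was 0.55 (log2) above the mean of the first 4 sham samples.

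Dnajb1, the J-domain cochaperone, at chr8:83608175-83612653, had ratios of the same sign as those of Hspa1b on each day. Its TAB values were 895, 803, 1153, 783 and 632, and its sham values were 529, 558, 708, 583 and 1242, in the order of the days. The sham sample of day 28 was the highest of all 10 samples and 2.10-fold above the mean of the other sham samples, and 4 of the 5 TAB samples were above those. The log2 ratios were 0.76, 0.53, 0.71, 0.43 and −0.98. The mean difference was 0.29 (SE 0.27; limma, adjusted p = 0.507), and 0.60 (SE 0.12; limma, adjusted p = 0.0409) without day 28. With day 3, 5, 7 or 14 left out it was lower, 0.17 to 0.25. With only the sham sample of day 28 left out, in the fit without the block, it was 0.50 (SE 0.18) and did not pass (limma, adjusted p = 0.0847).

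The levels of Hspa1b and Dnajb1 over the 10 samples had a Pearson r of 0.927 and a Spearman rho of 0.964 on the log2 scale. Without the sham sample of day 28 the Pearson r was 0.934 over 9 samples, and without the samples farthest from the median of Hspa1b, TAB of day 7 and sham of day 28, it was 0.879 over 8. The points share their arrays and fall into 2 operations, and the values are a description. The genes whose levels were most like Hspa1b were Rpl23 (r = 0.936), Tbk1 (r = 0.928) and Dnajb1, and those most like Dnajb1 were Hspa1b, Fam108c (r = 0.915) and Gfer (r = 0.904). For Hspb7 they were Mybpc2 (r = 0.974), Ino80c (r = 0.967) and Nde1 (r = 0.954). For Hspb6 they were Htatip2 (r = 0.946), Extl3 (r = 0.931) and Alpk3 (r = 0.929), all over 10 samples. These genes were picked for the highest r among probes with a gene symbol, out of the 12654 kept probes found on all 10 arrays. A high r was thus selected for and was not tested.

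The promoters of Hspa1b and Hspa1a, of Dnajb1, which followed Hspa1b over the samples, and of Hspb7, the member called, are shown from 200 bases before the start of the gene up to it, as RefSeq gives them in GRCm38.p6, 5′ to 3′ on the strand of the gene. Capitals mark the letters GAANNTTC or TTCNNGAA, paired units of the sequence that heat shock factors are known to bind; each pattern reads the same on both strands.
Hspa1b, chr17:34959239-34959438, minus strand: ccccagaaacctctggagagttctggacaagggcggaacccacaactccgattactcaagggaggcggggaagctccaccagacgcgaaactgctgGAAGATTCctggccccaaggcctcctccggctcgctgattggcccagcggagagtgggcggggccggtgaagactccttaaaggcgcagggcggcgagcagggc
Hspa1a, chr17:34972157-34972356, minus strand: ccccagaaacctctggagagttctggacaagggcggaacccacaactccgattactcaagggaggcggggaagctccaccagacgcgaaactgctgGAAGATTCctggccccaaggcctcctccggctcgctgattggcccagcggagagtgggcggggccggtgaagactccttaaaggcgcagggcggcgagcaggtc
Dnajb1, chr8:83607975-83608174, plus strand: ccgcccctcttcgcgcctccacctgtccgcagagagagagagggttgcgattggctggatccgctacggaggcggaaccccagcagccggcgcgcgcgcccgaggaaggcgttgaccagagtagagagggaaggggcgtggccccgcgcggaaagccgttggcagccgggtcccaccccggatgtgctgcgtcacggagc
Hspb7, chr4:141420579-141420778, plus strand: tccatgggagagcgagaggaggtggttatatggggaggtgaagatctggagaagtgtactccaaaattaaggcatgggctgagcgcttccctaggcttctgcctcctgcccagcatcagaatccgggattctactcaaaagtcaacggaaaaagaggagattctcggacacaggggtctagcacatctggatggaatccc

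The 2 Hsp70 promoters were identical at 199 of the 200 positions shown, and each held the match GAAGATTC at −104 to −97 from the start of the gene. Windows of 300 bases, 250 before and 50 after the start, were listed for 9 of the 10 members, 12 windows in all, and not for Hspb2. A match was in 8 windows of 7 members (Hspa1a, Hspa1b, Hspb1, Hspb3, Hspb6, Hspb8 and Hsph1), and 15.1% of the 32851 mouse promoter windows of that length held it. The longer patterns GAANNTTCNNGAA and TTCNNGAANNTTC, which contain the shorter ones, were in the windows of Hsph1 and in 0.603% of all windows. The windows of Dnajb1 and Hspb7 held none of these letters. The matches are a description of the sequence.

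Hspa1a, the other inducible Hsp70 gene, at chr17:34969359-34972156, was near the limit of detection. Its spot was found on 3 of 5 TAB and 3 of 5 sham arrays, and not on those of TAB days 3 and 14 and sham days 5 and 7. Its TAB values were 13.8, 67.3, 78.2, 19.2 and 43.8, and its sham values were 30.3, 22.2, 12.9, 42.5 and 95.8. With the unfound side held at its bound, TAB was at least 3.03-fold higher on day 5 and at least 5.51-fold higher on day 7, and sham was at least 2.20-fold higher on day 3 and at least 2.22-fold higher on day 14. On day 28, when both spots were found, the log2 ratio was −1.13, and the sham value was again the highest of the sham samples. The mean log2 difference of 0.16 (95% interval −1.44 to 1.75; limma, adjusted p = 0.896) rests on those unfound spots, leaves a wide range open and turned negative without day 5 or day 7.

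Hsph1, the nucleotide exchange factor, showed no separation of the groups. It was 248 to 411 in TAB and 200 to 395 in sham, with a mean log2 difference of 0.011 (95% interval −0.44 to 0.46; limma, adjusted p = 0.975). Its log2 ratios were 0.40, 0.31, −0.22, −0.67 and 0.23 over the days. Its sham value of day 28 was 351, inside the range of the other sham samples, unlike those of Hspa1b and Dnajb1.

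**Figure D3:**
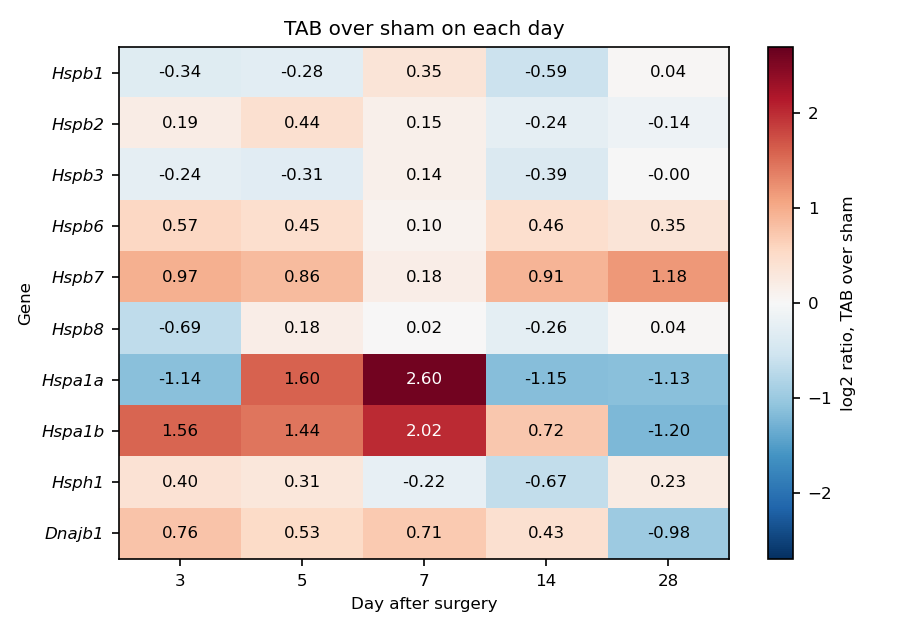
Log2 ratio of TAB over sham for the 10 members (rows) on each day after surgery (columns), with the value in each cell and red for higher in TAB. Hspb6 and Hspb7 are positive on all days. Hspa1b and Dnajb1 are positive on days 3 to 14 and negative on day 28. The values beyond 2 SD are those of Hspa1a and Hspa1b on day 7. For Hspa1a on days 3, 5, 7 and 14 the TAB or the sham spot was not found, so those cells are not estimates of size.

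By the study's rule for a single day, a gene is DE when its log2 ratio lies more than 2 SD of all ratios of that day from 0, which was 1.75, 1.87, 1.71, 1.46 and 1.38 from the first to the last day. The rule has no test, as each day had 1 sample per operation. It called 2 of the 50 ratios of the members, those of Hspa1a and Hspa1b on day 7. The sham spot of Hspa1a was not found on that day. On that day 5.49% of all probes were called, and 5.4%, 5.46%, 5.66% and 5.91% were called on days 3, 5, 14 and 28, when no member was. On day 7 the value of Hspa1b in TAB was the highest of its 10 samples, 4.07-fold above sham.

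The TAB effect was lower on days 14 and 28 than on days 3 to 7 in 7 of the 10 members, with a median of −0.28 (log2), while 48.6% of all probes were lower and their median was 0.015. No member passed the test of this difference, nor did any of the 19976 probes (0%), while 10.4% of probes and 1 member, Hspa1b, had an unadjusted p under 0.05. For Hspa1b the difference was −1.92 (SE 0.61; limma, adjusted p = 0.439), for Dnajb1 −0.94 (SE 0.45; adjusted p = 0.526) and for Hspb2 −0.45 (adjusted p = 0.518). That of Hspa1a, counted among the 7, was fitted as −2.16 (adjusted p = 0.539) with 4 of its 10 spots not found, so that its ratios on days 3, 5, 7 and 14 are bounds and the fitted value is not an estimate of size. With each day left out in turn, the difference of Hspa1b ran from −2.88 (without day 14) to −0.96 (without day 28), and that of Dnajb1 from −1.64 to −0.24 without the same days. The late days include day 28, on which the sham samples of Hspa1b, Dnajb1 and Hspa1a were high. Over all probes, 0.461% had a sham sample of day 28 so far above the other sham samples that its gap exceeded 0.71 of the range, and of the members Hspa1b did. The leukocyte marker sum of that sample, 1475, was inside the range of the other sham samples, while in TAB that sum was highest on days 3 to 7, as the ratio of Hspa1b was. Its part in the result was not tested.

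Other chaperones of the same pathways were read from lists of 47 genes, of which 45 had a probe that passed the filter. The spots of 3 of these, Cryaa, Dnajb6 and Stub1, were not found on any array, and their values are not read here. Of the 45, 3 were higher and 1 lower in TAB, against 7.47% and 6.73% of all probes, and 41 did not pass. These shares of the lists are not above those of all probes, and the median of the 42 genes found was 0.020 (log2). Hspa2, an Hsp70 of testis and other tissues, was 602, 667, 714, 684 and 598 in TAB and 431, 485, 468, 332 and 482 in sham, a mean log2 difference of 0.58 (SE 0.14; limma, adjusted p = 0.0432). All of its TAB samples were above its sham samples. Bag2, a cochaperone that inhibits the ubiquitin ligase Stub1, was higher by 0.42 (SE 0.096; limma, adjusted p = 0.0408). These were the called genes among the 23 cytosolic chaperones and cochaperones found, of 26 listed, whose median was −0.034. Hsp90aa1, the inducible Hsp90, had a difference of 0.47 (adjusted p = 0.149) and Bag3 of −0.18 (adjusted p = 0.326). No sham sample of day 28 stood apart among these genes by the measure above. It was above the mean of the other sham samples in 24 of the 42 genes found, with a median of 0.063 (log2) and a range from −0.72 for Hspa4l to 0.62 for Cct6a.

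Among the genes of chaperone-assisted autophagy at the Z-disc, 4 of the 6 listed were found. Flnc, filamin C, the actin crosslinker that this pathway turns over and that Hspb7 is known to bind, was 8712, 9138, 6568, 4582 and 4671 in TAB and 2843, 2429, 2652, 3170 and 3852 in sham. Its mean log2 difference was 1.13 (SE 0.27; limma, adjusted p = 0.0442), and all TAB samples were above all sham samples. Synpo2, an adaptor of the same pathway, was lower by a log2 difference of −0.77 (SE 0.16; limma, adjusted p = 0.0331). The median of the 4 genes was −0.12. The calls of Hspa2, Bag2, Flnc and Synpo2 were each lost when day 3, 5, 7 or 14 was left out, and that of Bag2 also without day 28.

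The remaining lists had no called gene. Of the related small heat shock proteins, Cryab, a crystallin of lens and muscle, had a mean log2 difference of 0.17 (limma, adjusted p = 0.343). Hspb9 was at −0.60 (limma, adjusted p = 0.0578), with all TAB samples below all sham samples. The 3 of 4 mitochondrial chaperones measured had a median of −0.12, and heat shock factors Hsf1, Hsf2 and Hsf4 had a median of 0.0077, which was the value of Hsf1 (adjusted p = 0.973). The 8 subunits of the cytosolic chaperonin, which folds actin and tubulin, had a median of 0.19, 7 of them positive, against 45.5% of all probes. Their summed intensity was 46640, 45704, 42162, 37937 and 33683 in TAB over the days and 31767 to 37969 in sham, and the late minus early difference was negative in 8 of 8 with a median of −0.55, against 48.6% of all probes. None of these differences passed the test.

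**Figure D4:**
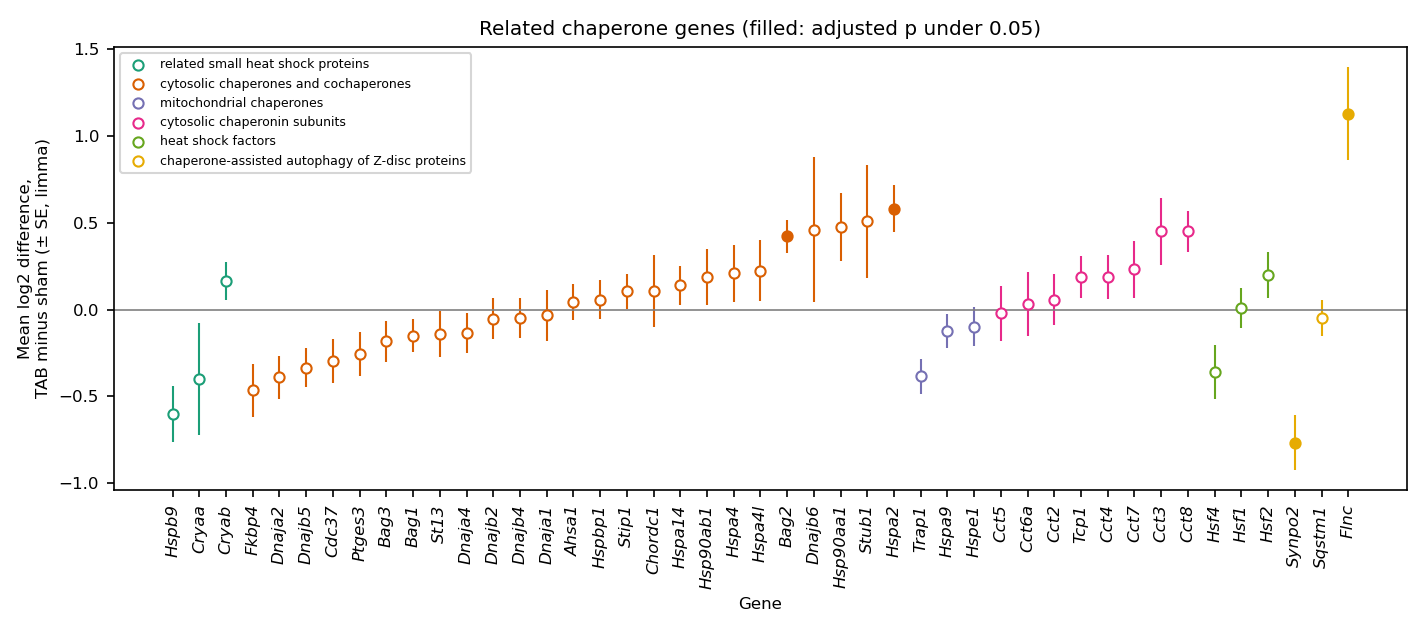
Mean log2 difference of TAB minus sham with bars of ± 1 SE (limma) for 45 related chaperone genes, coloured by list and ordered by value within a list, with filled symbols for an adjusted p under 0.05. Cryaa, Dnajb6 and Stub1 were not found on any array, and the filled symbols are Bag2, Hspa2 and Flnc above 0 and Synpo2 below it.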

How the data were processed

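The authors deposited raw probe intensities of 10 arrays with a background subtracted by a method not given in the sources used here, a spot flag and a detection p-value; the 10 columns of the latter were not used. Cy5-labelled RNA was scanned with an Agilent scanner and read with GenePix, and control probes are not in the table. The meaning of the flag, a score of 0 or a negative value, is not stated, and the negative value was read as a spot not found.

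Following the study's methods, the arrays were brought to the same median (47), probes with an intensity below 1 in any sample were removed (19976 of 26423 kept), and quantile normalization gave each rank its median over the 10 arrays, with ties at their mean. The study's wording can also be read as ranks taken within TAB and within sham, which was tried as an alternative. The log2 values were fitted with limma 3.58.1 (lmFit and eBayes) in R 4.3.3, TAB against sham with day as a block, with Benjamini-Hochberg adjustment over all probes at 0.05. A second contrast set days 14 and 28 against days 3, 5 and 7. A gene was counted by its probe of highest mean intensity. The study takes the probe of largest summed change per gene, which uses the outcome and was tried as an alternative. A bound for a spot not found was taken as the higher of its own value and the lowest intensity of a found probe on that array. Tables were made with Python 3.11.15, numpy 2.4.6 and pandas 2.3.3.

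The day in the labels pairs the samples, as in the study's ratios. The deviations of TAB and sham from their group means on the same day had r = 0.112, 0.00148, 0.0466, 0.0164 and 0.0163 on days 3, 5, 7, 14 and 28 over 19976 probes, and the block was dropped in an alternative. In a simulation of 19976 probes, 200 of them changed, the TAB effect was recovered for 78% at a log2 change of 2 and 90% at 3 with 6 false calls, and the late minus early difference for 18% and 50% with 1 false call. Smaller changes were not simulated, and the TAB effect of every member was below 2 (log2). The simulation changed far fewer probes than the 2836 called in the data, and drew independent noise without a day effect. Its rates therefore do not give the power of these fits.

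The named genes are the 10 members, listed chaperones and markers where a result turns on them, and the 3 genes with the highest Pearson r to a member. Members and lists were chosen with earlier results of these data known. The fits without the sham sample of day 28 or day 14 were chosen after seeing the data, as were leaving a day out for the related chaperones and leaving genes not found on any array out of their medians. Hspa8 and Hspd1 were looked for by symbol and not analysed here.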

Additional observations from a re-analysis of the deposited data

Results flagged for a closer look

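Among the 20 groups of 5 samples of the 10 members, 3 held a sample whose gap to its nearest neighbour exceeded 0.71 of the group's range on the log2 scale. For replicates of a single condition, chance gives about 1 in 20 such groups. The samples of a group here are from different days, so that rate need not hold. The share of such groups over all probes was not computed. For Hspa1b the highest sham sample, that of day 28, was 330 with a gap of 0.923 of the range. For Hspb1 the highest sham sample, that of day 14, was 1677 with a gap of 0.901 of the range. For Hspb8 the lowest TAB sample, that of day 3, was 5309 with a gap of 0.714 of the range.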

How the results depend on the processing

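The count of called members was 1 of 10 (Hspb7, with 14.2% of all probes called). It stayed 1 with median scaling alone (13.2%) and with quantile normalization done for TAB and sham apart (14.2%) or with rank means (14.1%). It also stayed 1 with the study's probe per gene (17.1%) and without sham replicate 4 (day 14, no block, 16.7%). It was 2 (Hspb7 and Hspb6) without the replicate block (19.4% of all probes), with 50 added before log2 (24.5%), with only probes found on all 10 arrays (34.6%) and with trend and robust on (23.7%), 0 with no filter on low intensity (1.4%), and 3 (Hspb6, Hspb7 and Hspa1b) without sham replicate 5 (day 28, no block; 16.1%). With each day left out it ranged from 0 to 2. It was 0 without day 3, 5, 7 or 14, when 0.0651%, 0.175%, 0.115% and 0.921% of all probes were called. The 2 were Hspa1b and Dnajb1 without day 28 (13.9% of all probes), when Hspb7 was no longer called. The count for late against early days was 0 under all of these settings in which that contrast was fitted. The related chaperones called were 4 of 45, and 8 without the block, where the share over all probes also rose. They were 0 to 4 with each day left out, beside the shares of all probes given above for those days. Calls on single days were 2, and 10 with an absolute log2 ratio of at least 1 as the rule. The 10 were Hspa1a on each day, Hspa1b on days 3, 5, 7 and 28, and Hspb7 on day 28. Hspa1a had a spot not found on days 3, 5, 7 and 14. The share of all probes beyond that threshold was not computed, so the count of 10 has no background beside it. The late minus early difference of Hspb6 and Hspb8 was −0.032 and −0.066 under median scaling, against 0.031 and 0.054. With each day left out, the TAB effect ranged from −0.45 to 0.48 for Hspa1a, −0.0084 to 0.16 for Hspb2 and −0.086 to 0.18 for Hsph1, and the late minus early difference from −0.50 to 0.13 for Hspb1, −0.26 to 0.13 for Hspb3, −0.11 to 0.13 for Hspb6, −0.21 to 0.23 for Hspb8 and −0.84 to 0.064 for Hsph1. The cause of these changes was not tested. A day left out also removes samples. Keeping probes of low intensity adds probes to the adjustment, and the SE of Hspb7 was then 0.173, against 0.165. Over all probes, the calls split into 1492 higher and 1344 lower, 1747 and 884 under median scaling and 1856 and 979 with quantile normalization within each operation, while 7 members had a positive mean under each. Of the 178 other values of the members with no day or sample left out, 171 kept their direction and side of the threshold. Hspa1a, found on 6 of 10 arrays, is limited by signal over background.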
